A study of Mus musculus with 48 samples.

Results

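Genes of fatty acid oxidation and known targets of PPARalpha were followed through mouse liver tissue, hepatocytes isolated from it, spheroids formed from such cells in culture, and the same kind of spheroid after 2 months in the eye. The set holds 38 of the 46517 genes in the count table, picked by symbol for their textbook role. The rule names no measured value, but the members were chosen with earlier results of these data known. They were 2 regulators (Ppara, Creb3l3), 2 secreted factors (Fgf21, Angptl4), 4 genes of fatty acid uptake, binding, activation and storage (Cd36, Fabp1, Acsl1, Plin2), 4 of the carnitine shuttle, 9 of mitochondrial beta-oxidation, 8 peroxisomal genes, 6 microsomal Cyp4a genes, the ketone body enzyme Bdh1, and the targets Pdk4 and Vnn1.

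RNA was sequenced with Smart-seq3 from 16 samples, each as 3 technical libraries that were summed. All samples carried the labels WT Albino and C57BL/6N, with no gene deleted or added and no drug treatment. The groups were 5 explants taken 2 months post-transplantation (post-tx; numbered 1, 2, 4, 5 and 6, explant 3 being not analysed here), 3 naïve irises, 3 in situ livers, 3 hepatocyte preparations enriched by collagenase perfusion and a Percoll step, and 2 in vitro spheroid samples, formed in medium with serum and dexamethasone that was later replaced in part by serum-free medium. An explant was the engrafted spheroid together with the iris around it, and several spheroids in 1 eye were pooled, so its RNA mixed both tissues. Total counts ran from 2718518 to 6789648 per sample. The study describes its groups as biological replicates, but the labels tie no sample to an animal, so p-values measure only the spread between these samples.

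PPARalpha is a nuclear receptor that fatty acids activate. With its partner RXR it binds a pair of AGGTCA-like sites spaced by 1 base, and in liver it raises genes that import fatty acids, carry them into mitochondria on carnitine, shorten them in mitochondria and peroxisomes, oxidise their far end in the endoplasmic reticulum (the Cyp4a enzymes) and turn the product into ketone bodies. Fasting is its best known physiological trigger, and Cyp4a10, Cyp4a14 and Pdk4 are among its most inducible targets in mouse liver.

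This pair of sites was looked for in the promoters of the members, because it is the sequence through which the receptor is known to act. RefSeq promoter windows (GRCm38.p6, from 250 bases before to 50 after the start site) were at hand for 27 of the 38 members. The motif, AGGTCA, then 1 base of any kind, then AGGTCA again, searched on both strands with up to 2 mismatches, was in the windows of 5 of these 27 genes (18.5%), against 4.4% of 27025 genes overall. With 1 mismatch it was in 1 member (3.7%, against 0.644% overall) and with none it was in no member. The windows of the 5 genes follow, 5′ to 3′ on the strand of the gene, with the matched 13 bases in capitals. A motif on the opposite strand reads TGACCT, any base, TGACCT.
Fabp1, chr6:71199804-71199832, 1 mismatch, opposite strand: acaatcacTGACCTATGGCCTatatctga
Cd36, chr5:17835939-17835967, 2 mismatches, opposite strand: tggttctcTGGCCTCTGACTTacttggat
Creb3l3, chr10:81092780-81092808, 2 mismatches, strand of the gene: ctgtaagtAGGGGAGAGGTCAcacagacc
Plin2, chr4:86670264-86670292, 2 mismatches, opposite strand: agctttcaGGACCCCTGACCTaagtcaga
Slc25a20, chr9:108662134-108662162, 2 mismatches, strand of the gene: ctgaatgtAGGTGAAAGGTCGgcggagcc
The matches began 67 bases before the start site in Fabp1, 63 in Cd36, 209 in Creb3l3 and 225 in Plin2, while that of Slc25a20 lay just after the start site. A match of letters is a description and says nothing about binding in these samples. Fabp1, Cd36 and Creb3l3 reappear below among the members called higher in explants than in irises, and Plin2 and Slc25a20 were called in no comparison.

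The hepatocyte markers fixed for the check were high where the labels say liver cells should be. Their summed level was 18600 to 21040 TPM (counts scaled for gene length and for the depth of the library) in livers and 1983 to 2405 TPM in irises. The iris share of an explant, solved from the deposited tables, was 82%, 68%, 81%, 72% and 59% for explants 1, 2, 4, 5 and 6. After subtraction of the mean iris profile and rescaling, called corrected TPM below, the summed hepatocyte markers of the explants were 21050 to 28700. The summed iris and pigment markers were then 309 to 3690 in explants, against 541 to 555 in livers, and lay above the livers in explants 1, 2 and 6. Summed macrophage markers were 2333 to 6231 in corrected explants and 544 to 1181 in livers, with 7 of 10 called higher in explants. The part these cells played in the results below was not tested.

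In the 3 livers nearly every member was well expressed. Fabp1, the liver fatty acid binding protein, led in TPM (2037, 2756 and 2467 TPM), followed by Acaa2, the thiolase of mitochondrial beta-oxidation (1621, 1710 and 1746 TPM). Counts of Fabp1 reached 0.879 to 1.37 per exonic base and library in livers, close to the highest value of any gene of at least 500 bases (1.703), so differences in its level may be understated. Pdk4, a kinase that restrains pyruvate oxidation and is high in fasting, was lowest at 7.74, 10.2 and 8.83 TPM.

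The livers did not match each other for a few members. Cyp4a12a, an omega-hydroxylase of arachidonic acid that is known to be higher in male mice, stood at 35.4 TPM in liver 1 against 348 and 336 TPM in livers 2 and 3. Its near-copy Cyp4a12b was at 22.4, 157 and 164 TPM and the pantetheinase Vnn1 at 42.1, 171 and 196 TPM. Liver 1 was thus under 50% of both other livers for 3 of 37 members expressed at a mean of 10 TPM or more (8.11%, against 2.01% of all such genes). The Y-linked Ddx3y was at 35.1 to 85.8 TPM in the 16 samples and Xist at 0.335 TPM or less in each. Summed macrophage markers were highest in liver 1 (1181 TPM). Cyp4a14 went the other way and was highest in liver 1, at 679.8, 183 and 404 TPM.

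Many members were detected in irises too, which bears on every explant value. Hepatocyte markers also summed to 1983 to 2405 TPM in irises, and iris and pigment markers to 541 to 555 TPM in livers. Where such reads come from was not tested, so a low value in irises need not be expression by iris cells. The median member was at 27.7% of its liver level in irises, and the 13 mitochondrial members (shuttle and beta-oxidation together) at 50.5%, against 1.42% for 634 hepatocyte reference genes, chosen as genes at 10 TPM or more in livers and at most 5% of that in irises. The Cyp4a genes had a median of 0.945% of liver, and Fgf21, Creb3l3 and Acaa1b were as low, at 0.457%, 0.688% and 2.21%. Creb3l3, a liver transcription factor that works beside PPARalpha in fasting, was at 2.39, 2.34 and 2.82 TPM in irises. Eci1, an enoyl-CoA isomerase of mitochondria, was at 475, 427 and 394 TPM there, just below its range in livers.

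**Figure D1:**
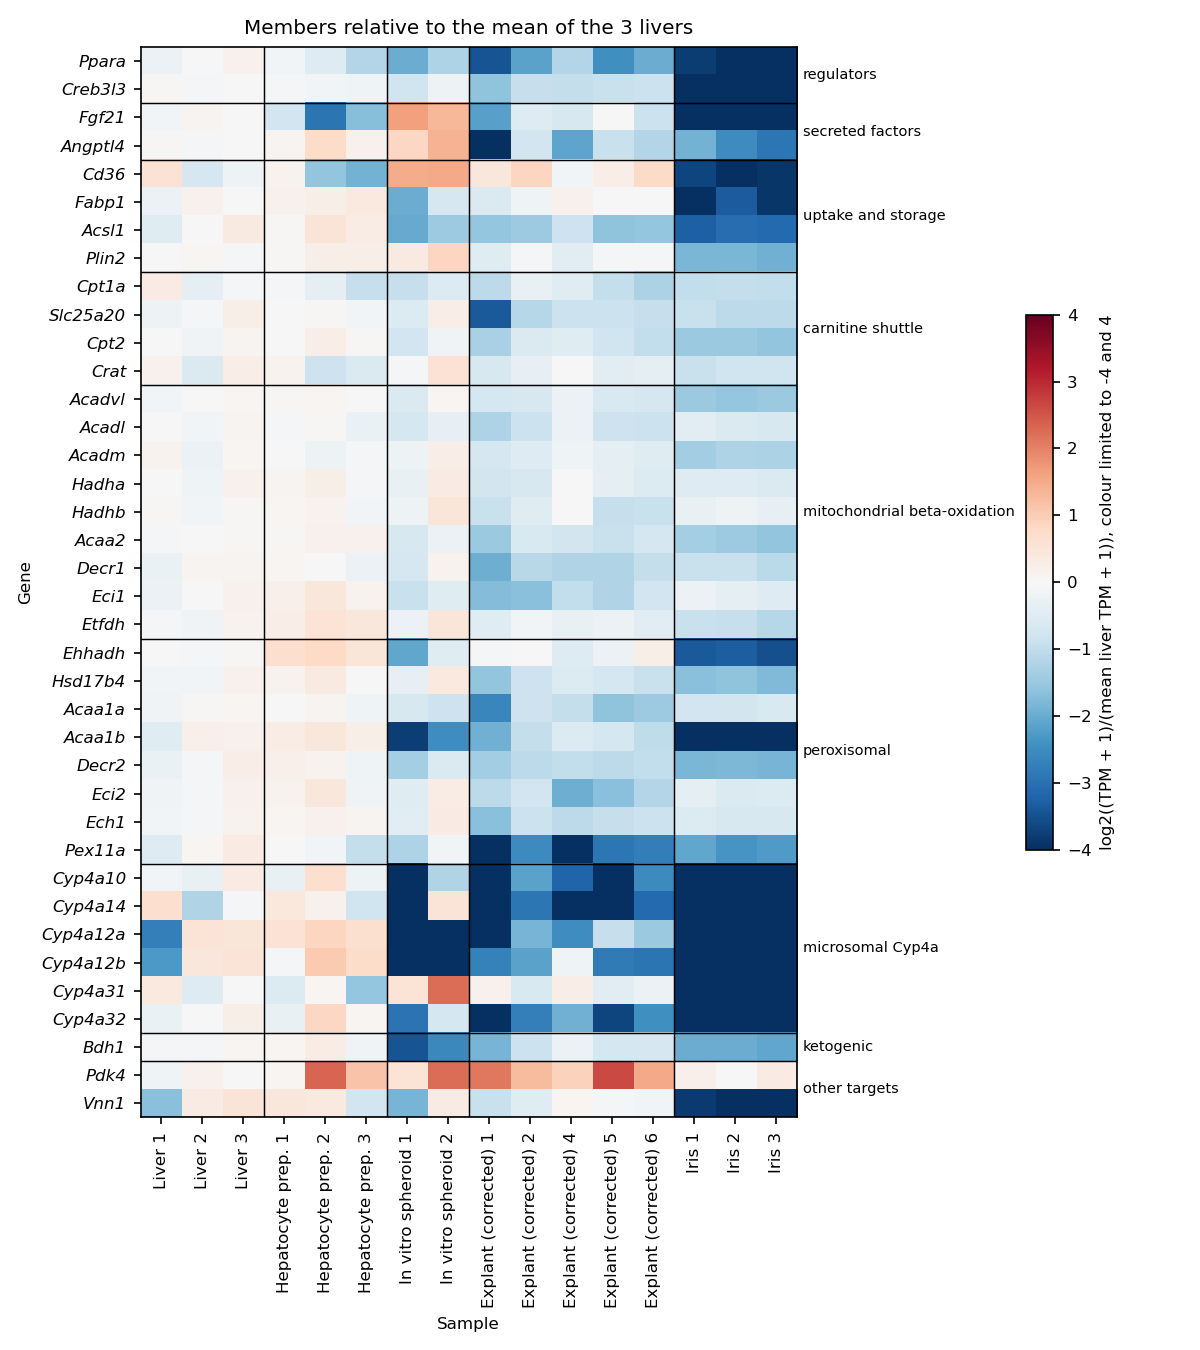
Levels of the 38 members (rows, ordered by role) in each sample (columns), as log2 of the ratio to the mean of the 3 livers, with explants shown after iris correction. Blue is below and red above liver, on the log2((TPM + 1)/(mean liver TPM + 1)) scale, with colours limited to -4 and 4. All 6 Cyp4a rows are dark blue in irises and most are blue in explants, while the mitochondrial rows are pale throughout.

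To learn what engraftment added to the eye, explants were compared with naïve irises on the counts. Of the 37 members tested, 9 were called higher (adjusted p under 0.05 and a log2 fold change over 1 in edgeR's quasi-likelihood test), where 6.16% of all genes tested were, and 0 were called lower (0.316% of all genes). At an unadjusted p under 0.05, 25 members were higher and 0 lower, with no share over all genes taken for that rule. DESeq2 called 13 members higher and 0 lower, beside 1219 and 60 of 16764 genes tested. With limma-voom these were 8 and 0, beside 541 and 42. The 9 were Creb3l3, Fgf21, Cd36, Fabp1, Ehhadh, Acaa1b, Cyp4a12a, Cyp4a31 and Vnn1. None of the 9 was mitochondrial, and the iris mean of each was between 0.457% (Fgf21) and 9.38% (Ehhadh) of its liver mean.

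Creb3l3 was at 23.5, 63.9, 37.9, 57.4 and 84.5 TPM in the explants before correction. Every explant lay above every iris (log2 fold change 4.53, SE 0.54, Benjamini-Hochberg adjusted p = 0.00097, edgeR). Fgf21, the fasting hormone of the liver, was at 4.1, 22, 12.1, 27.2 and 22.1 TPM in explants and 0.645, 0.69 and 0 TPM in irises (log2 fold change 5.22, SE 0.92, adjusted p = 0.0069, edgeR). Ehhadh, the bifunctional enzyme of peroxisomal beta-oxidation, was at 100.3, 153, 83.6, 123 and 217 TPM against 38.6, 40 and 34.6 TPM (log2 fold change 1.97, SE 0.34, adjusted p = 0.0067, edgeR). Explants and irises did not overlap for either gene.

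Ppara itself did not pass the test against irises. It was at 7.24, 13.1, 15.6, 10.8 and 16.3 TPM in explants and 7.98, 5.02 and 6.64 TPM in irises, so that explant 1 lay within the iris range (log2 fold change 1.05, SE 0.31, adjusted p = 0.054, edgeR). Cyp4a10 and Cyp4a14, fatty acid omega-hydroxylases, also missed it, with log2 fold changes of 2.20 (adjusted p = 0.052, edgeR) and 2.15 (adjusted p = 0.14, edgeR). The median log2 fold change was 0.42 over the members, 0.01 over all genes and 3.83 over the hepatocyte reference genes, of which 478 of 512 tested were called higher. The reference genes were chosen to be low in these same irises, and the members were not. The value of 3.83 thus follows in part from that choice and is no like background for the members.

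The comparison with in situ liver asked how far the engrafted cells held the liver's levels, and it used the corrected TPM. Of the 38 members, 13 were called lower in explants (3.01% of all genes tested were) and 1 was called higher (11.8% of all genes), by limma on log2(TPM + 1), the scale of the log2 fold changes below. The lower members were Ppara and Creb3l3, Acsl1, 2 of 9 genes of mitochondrial beta-oxidation (Decr1, Eci1), 5 of 8 peroxisomal genes (Acaa1a, Decr2, Eci2, Ech1, Pex11a) and 3 of 6 Cyp4a genes (Cyp4a10, Cyp4a14, Cyp4a32). Pdk4 was higher. The median log2 fold change was -0.90 over the members and -0.71 over the 634 hepatocyte reference genes, of which 128 were called lower, whereas over all genes tested it was 0.61. The 15 hepatocyte markers had a median of -0.23, with 1 called lower and 0 higher. Their sum was 21050 to 28700 in corrected explants and 18600 to 21040 TPM in livers. Fewer hepatocytes in a sample and less RNA per hepatocyte cannot be told apart in bulk tissue, and neither was tested.

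Relative to the hepatocyte reference genes, fewer members stood out. Those genes were chosen on these same livers and irises, not by their level in hepatocytes. In the hepatocyte preparations 76 of the 634 were under 50% of liver. Their median log2 fold change against livers was -0.71 and that of the hepatocyte markers -0.23, and the part of that choice was not tested. Values centred on the reference genes depend on it. With every sample centred on those genes, 5 members were called lower (1.23% of all genes): Cyp4a14, Pex11a, Cyp4a10, Cyp4a32 and Ppara, with log2 fold changes from -4.13 to -1.50. Pdk4 (log2 fold change 2.43) and Cd36 (1.27, adjusted p = 0.018, limma) were then called higher, beside 25.3% of all genes. The number of calls in the fit without centring depended on the livers. Without liver 3, 2 members were called lower, Cyp4a10 and Pex11a, beside 191 of 21354 genes tested. Without liver 2 there were 3, these and Decr2, beside 201 of 21315. Without liver 1 there were 9, beside 313 of 21259.

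**Figure D2:**
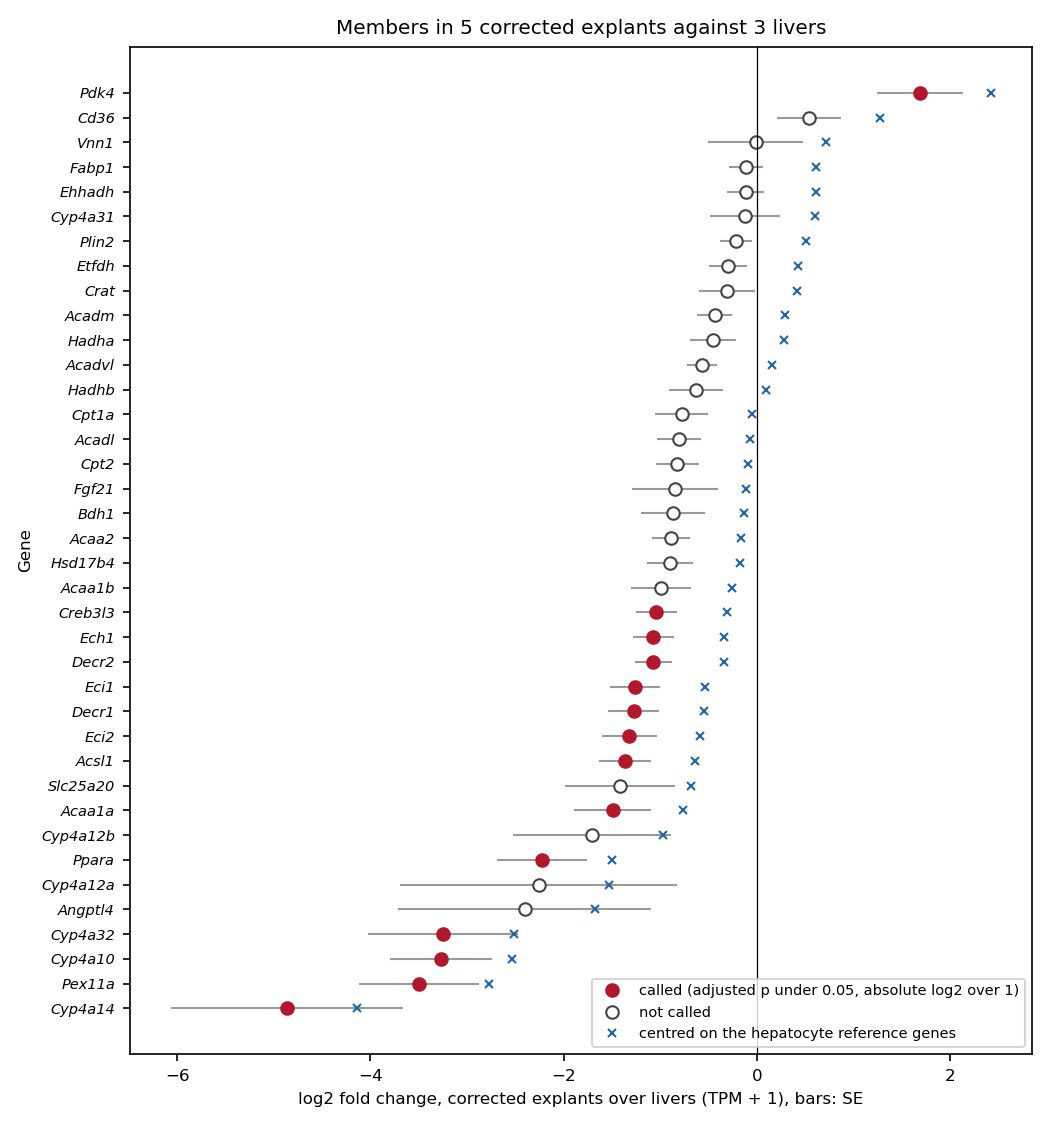
Log2 fold change (log2(TPM + 1) scale) of corrected explants against livers for each of the 38 members, with the limma standard error as bars; filled points passed the test and crosses show the value centred on the hepatocyte reference genes. Members called lower reach from about -1.04 (Creb3l3) to -4.87 (Cyp4a14), and Pdk4 at 1.69 is the single member called higher.

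Among the regulators, Ppara was at 104, 125 and 139.7 TPM in livers and 10.4, 26.9, 54.4, 21.8 and 30.4 corrected TPM in explants. The groups did not overlap, and the mean of 28.8 ± 16.2 (SD, n = 5) was 23.4% of the liver mean of 123 ± 17.7 (SD, n = 3; log2 fold change -2.23, SE 0.47, adjusted p = 0.013, limma). Subtracted iris signal made up 34.1% of the explant value at the median, and 74.2% in explant 1. Creb3l3 was at 377, 356 and 363 TPM in livers against 119, 194, 189, 198 and 202 in explants (log2 fold change -1.04, SE 0.22, adjusted p = 0.013, limma), again with no overlap. At the median, 3.16% of its explant signal was subtracted as iris. Its change was close to that of the reference genes, and it lost its call with samples centred on them.

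The secreted factors were not called. Fgf21 was at 89.9, 104 and 97.8 TPM in livers and 20.7, 67.8, 61.6, 95.9 and 53.3 in explants, with explant 5 inside the liver range. Angptl4, an inhibitor of lipoprotein lipase, was at 137, 129.6 and 132 TPM in livers and 0, 77, 29.8, 71 and 58.6 in explants. The 0 in explant 1 is what subtraction left of 15.6 TPM. All explants lay below all livers for Angptl4, but the spread among them was wide (log2 fold change -2.40, SE 1.31, adjusted p = 0.25, limma).

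The uptake and storage genes were nearest to liver, at a median of 89.9% of it. Fabp1 was at 1616, 2127, 2738, 2386 and 2401 in explants (log2 fold change -0.11) and the fatty acid transporter Cd36 at 222, 293, 149, 195 and 277 against 243, 100.003 and 142 TPM in livers (log2 fold change 0.54, SE 0.33, adjusted p = 0.30, limma). Both groups overlapped for each gene. Acsl1, which activates fatty acids by joining them to coenzyme A, departed from this pattern at 84.9, 91.2, 141, 81.3 and 85.2 against 180.5, 255 and 321 TPM (log2 fold change -1.37, SE 0.27, adjusted p = 0.011, limma), every explant lying below every liver. Plin2, a lipid droplet coat protein, was at 292 to 397 in explants and 390.3 to 427 TPM in livers.

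The mitochondrial genes lay close together. The 13 members were at a median of 58.9% of their liver level in corrected explants, with a range over genes of 41.8% to 81.1%, and the 634 reference genes were at 61.6%. Acadvl, which starts the oxidation of very long chains, was at 411, 424, 563, 438 and 420.5 in explants against 618, 672 and 708 TPM in livers. Acadm, its medium-chain counterpart, was at 217, 245, 312, 268 and 250.3 against 384, 296 and 370.03 TPM. Of the called members, Eci1 was at 166, 175, 284, 241 and 329 in explants and 476, 566 and 635 TPM in livers. All 13 had over 50% of their explant signal subtracted as iris, with medians from 57.7% to 84.0%, so their corrected levels depend more on the iris share than those of genes absent from iris.

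The peroxisomal genes split, and the called members were those with the most signal subtracted as iris. The 5 called lower had medians from 59.91% (Decr2) to 85.48% (Eci2) subtracted. Those not called had medians of 56.57% (Hsd17b4), 21.99% (Ehhadh) and 8.489% (Acaa1b). Of the 5, Pex11a alone kept its call with samples centred on the reference genes. The part of the subtraction in this split was not tested. Ehhadh lay on both sides of the liver values, at 385, 399, 279, 344 and 475 against 402, 389 and 415 TPM (log2 fold change -0.12, SE 0.19, adjusted p = 0.68, limma), with the 2 groups overlapping. Acaa1b, a peroxisomal thiolase, was at 172, 339, 444, 399 and 324 against 468, 751 and 734 TPM, without overlap and without a call. Pex11a, which drives the elongation and division of peroxisomes, was at 5.33, 40.1, 11.7, 31.2 and 34.3 against 166, 253 and 299.9 TPM. It was the most reduced peroxisomal member (log2 fold change -3.50, SE 0.62, adjusted p = 0.0071, limma) and was called lower in each of the 8 fits that left out 1 sample, but not with the corrected values as deposited. Before correction its explant values (42.3 to 47.1 TPM) barely varied and lay below those of irises 1 and 3 (56.3 and 49.4 TPM), and 80.6% of them was subtracted at the median.

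As a group the Cyp4a genes had a lower median relative to liver than the mitochondrial or peroxisomal genes, although they differed among themselves. They lie together on chromosome 4 within 322.557 kb (mm10, chr4:115299046-115621602), and parts of their exons are shared: 48.9% of the 50-base words of Cyp4a12a and 49.4% of those of Cyp4a12b also occur in the other, and 43.8% of those of Cyp4a32 and 29.8% of those of Cyp4a10 occur in another gene. Reads that map to several places were not counted, so each copy's own level is less certain than a single-copy gene's. Cyp4a10 was at 350.2, 307 and 479.6 TPM in livers and 17.6, 85.5, 40.2, 19.4 and 63.4 in explants (log2 fold change -3.27, SE 0.53, adjusted p = 0.0048, limma). Cyp4a14 was at 10.6, 55.5, 0, 9.38 and 47.9 in explants (log2 fold change -4.87, SE 1.20, adjusted p = 0.026, limma), below all livers. Cyp4a10 was called lower in all 8 fits with 1 sample left out and Cyp4a14 in 4 of them.

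The other Cyp4a genes did not move as one. Cyp4a12a was at 0.429, 65.7, 41.7, 127 and 85.3 in explants, a range that overlapped liver 1. Cyp4a31 was at 33.8, 19.2, 36.8, 21.9 and 25.7 against 40, 20.8 and 29.7 TPM in livers, with the 2 groups interleaved (log2 fold change -0.12). The group's median level was 19.3% of liver, and Cyp4a31 was its highest member at 91.2%. At the median, 41% or less of the explant signal of each Cyp4a gene was subtracted as iris, but single explants lost far more. It was 100% for Cyp4a14 in explant 4 and for Cyp4a32 in explant 1, and 96.6% for Cyp4a12a in explant 1. Cyp4a32 rested on 0 to 10 counts per explant. With a pseudocount of 0.1 in place of 1, Cyp4a14 and Cyp4a32 lost their calls and Cyp4a10 kept its call.

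**Figure D3:**
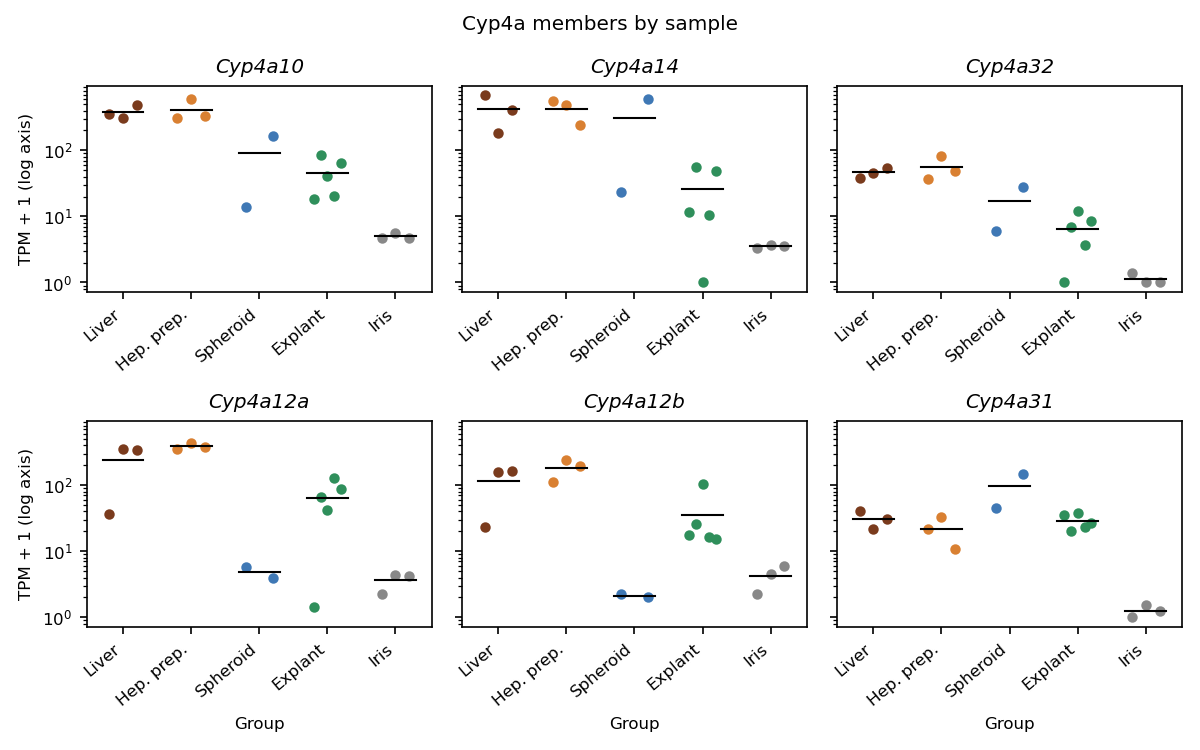
TPM + 1 of the 6 Cyp4a genes on a log axis, 1 panel a gene and 1 point a sample, with the group mean as a line and explants after iris correction. Cyp4a10, Cyp4a14 and Cyp4a32 lie lower in every explant than in any liver, the 2 spheroid samples lie far apart for these 3 genes, and Cyp4a31 overlaps between explants and livers.

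Bdh1, which makes 3-hydroxybutyrate from acetoacetate, was at 65.5, 132, 202, 146 and 152 in explants against 232, 232 and 255 TPM in livers. All explants lay below all livers, without a call. Pdk4 was the member higher in explants, at 41.4, 23, 17.9, 60.4 and 27.2 against 7.74, 10.2 and 8.83 TPM, with no overlap (log2 fold change 1.69, SE 0.44, adjusted p = 0.033, limma). Its call was lost without explant 1, without explant 5 and without any 1 of the livers, with adjusted p up to 0.13. Immediate early genes, which respond to handling, moved the same way, summing to 518 to 1598 corrected TPM in explants and 75.7 to 129.9 TPM in livers, and their part in the Pdk4 value was not tested. Vnn1 overlapped (log2 fold change -0.01). In corrected TPM, 22 members lay lower in every explant than in any liver, where 8.74% of all genes did, and Pdk4 alone lay higher, where 19.8% did.

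**Figure D4:**
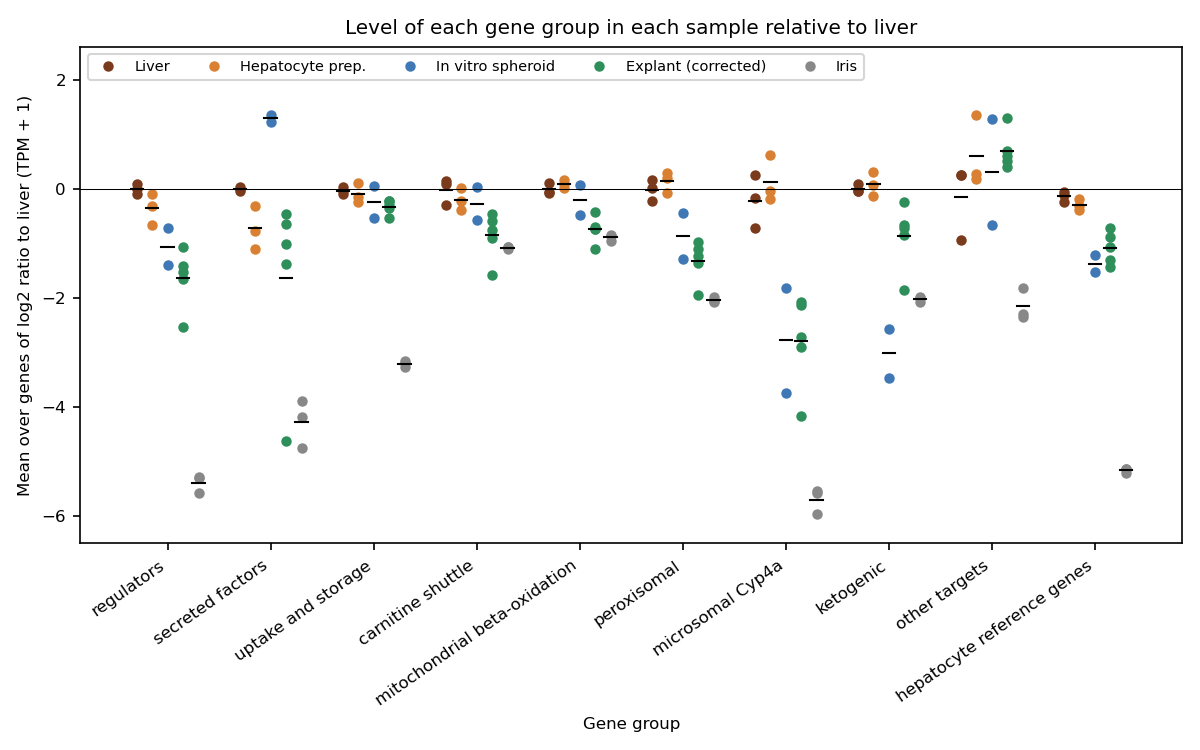
Mean log2 ratio to liver of the members of each role group, 1 point a sample, with the group mean as a line and explants after iris correction. The Cyp4a mean of the 5 explants runs from -4.17 to -2.07, while the mitochondrial and uptake groups lie closer to liver. The low explant among the secreted factors, at -4.62, is explant 1.

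Isolation was addressed by setting the hepatocyte preparations beside the livers. This fit called few genes of any kind (50 higher and 283 lower of 12236), so an absence of calls says little about the members. Between the hepatocyte preparations and the livers 0 of 38 members were called in either direction by edgeR, beside 0.409% of all genes higher and 2.31% lower. At an unadjusted p under 0.05, 9 members were higher and 1 was lower, with no share over all genes taken for that rule. DESeq2 called 1 member each way, beside 117 genes higher and 530 lower of 12236. With limma-voom no member was called, beside 9 genes higher and 11 lower. The median member was at 108% of liver. Ehhadh came nearest to a call, at 645, 704 and 559 TPM in preparations against 402, 389 and 415 TPM (log2 fold change 0.80, SE 0.12, adjusted p = 0.026, edgeR), which was under the fold limit although the groups did not overlap. Fgf21 was at 57.2, 12 and 29 TPM, below all livers (log2 fold change -1.42, SE 0.43, adjusted p = 0.095, edgeR). Pdk4 was at 9.57, 49.3 and 21 TPM (log2 fold change 1.71, SE 0.52, adjusted p = 0.098, edgeR), its first value lying within the liver range. In TPM, 6 members lay higher in every preparation than in any liver (7.35% of all genes did) and 2, Creb3l3 and Fgf21, lay lower (23.8% of all genes did). Without preparation 1, Pdk4 was called higher and Fgf21 and Cd36 lower. Immediate early genes summed to 741.6 to 1827 TPM in these preparations.

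Culture was addressed by comparing in vitro spheroids with hepatocyte preparations. By edgeR, 11 of 38 members were called lower in spheroids (9.11% of all genes) and 3 higher (8.13% of all genes). The members that fell were Ppara, Fabp1 and Acsl1, Eci1 of mitochondria, the peroxisomal Ehhadh, Acaa1a, Acaa1b and Decr2, Cyp4a12a, Cyp4a12b, and Bdh1. Fgf21, Cd36 and Cyp4a31 rose. The median log2 fold change was -0.63 over the members, 0.01 over all genes and -1.12 over the reference genes (271 of 582 called lower). In TPM, 17 members lay lower in both spheroid samples than in any preparation (15.8% of all genes did) and 5 lay higher (44.2% of all genes did).

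Cyp4a12a, abundant in preparations, was nearly gone from spheroids, at 355, 439 and 372 TPM in preparations and 4.71 and 2.99 TPM in spheroids (log2 fold change -6.98, SE 0.28, adjusted p = 3.8e-05, edgeR). Cyp4a12b had the larger fold change, at 109, 238 and 191 against 1.27 and 1.01 TPM (log2 fold change -7.58, SE 0.52, adjusted p = 0.00016, edgeR). Its spheroid values rested on 4 and 3 counts, so the size of this change and its rank over Cyp4a12a are uncertain. Acaa1b was at 796, 883 and 769 TPM in preparations and 46.9 and 116 TPM in spheroids (log2 fold change -3.61, SE 0.44, adjusted p = 0.0016, edgeR). Bdh1 was at 252, 296 and 219.6 against 20.8 and 39.6 TPM (log2 fold change -3.38, SE 0.36, adjusted p = 0.00098, edgeR). For all 4 genes the spheroids lay far below every preparation.

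Ppara was at 115, 85.8 and 53.7 TPM in preparations and 30.1 and 51.4 TPM in spheroids, so that spheroid 2 lay just under preparation 3 (log2 fold change -1.35, SE 0.37, adjusted p = 0.031, edgeR). Fgf21 was at 306 and 246 TPM in spheroids, above every other sample of the study (log2 fold change 2.72, SE 0.45, adjusted p = 0.0049, edgeR). Cd36 was at 459 TPM in both spheroid samples against 179, 53.8 and 42.8 TPM (log2 fold change 2.01, SE 0.53, adjusted p = 0.029, edgeR). Cd36 is also made by macrophages and endothelium, and summed macrophage markers were 600 to 798 TPM in spheroids and 157 to 291 TPM in preparations, with 6 of 10 called higher; their part was not tested.

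The 2 spheroid samples differed from each other for this set. Of 36 members with a mean of 10 TPM or more, 34 were higher in spheroid 2 (94.4%, against 38.2% of 8747 such genes), 10 by over 2-fold (27.8%, against 2.49%), and none was over 2-fold higher in spheroid 1 (6.22% of all genes were). Cyp4a14 was at 22.2 and 601 TPM, a ratio of 27, and Cyp4a10 at 13 and 164 TPM, a ratio of 12.7. Vnn1 was at 36.8 and 169.9 TPM (ratio 4.61), Ehhadh at 94.2 and 290.1 TPM (3.08) and Pdk4 at 13.4 and 46.1 TPM (3.43). Cyp4a14 and Cyp4a10 had the highest ratios, followed by Cyp4a32 (5.50), which shares part of its sequence with Cyp4a10. Cyp4a12a and Cyp4a12b were low in both samples. What set the 2 samples apart was not tested. The 3 technical libraries of a sample were close: those of spheroid 1 held 17.3 to 26 TPM of Cyp4a14 and those of spheroid 2 held 566 to 617 TPM. With 1 sample on each side there is no test of this difference.

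**Figure D5:**
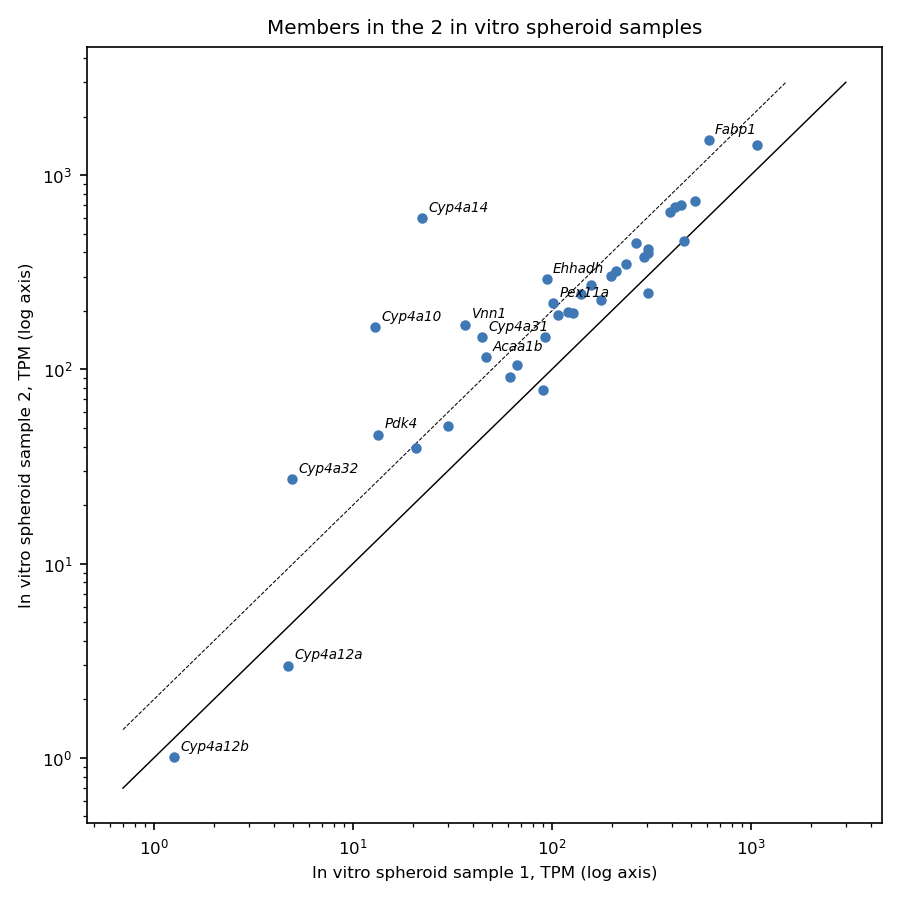
TPM of each member in spheroid sample 1 (x) and spheroid sample 2 (y), both on log axes, with a solid line of equal level and a dashed line at 2-fold. Most members lie above the line, and Cyp4a14 and Cyp4a10 lie farthest from it.

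Calls against the preparations depended on which samples were in the fit. With spheroid 2 left out the median log2 fold change was -1.13 over the members and -0.00067 over all genes. With spheroid 1 left out these medians were -0.17 and -0.034. Ppara was not called without spheroid 1 (log2 fold change -0.93, adjusted p = 0.15, edgeR), nor without preparation 1 or 2 (adjusted p = 0.057 and 0.053, edgeR). Cyp4a31 lost its call without spheroid 2 (log2 fold change 0.66, adjusted p = 0.42, edgeR), without preparation 1 or 3 (adjusted p = 0.081 and 0.11, edgeR) and with limma-voom. Ehhadh and Fabp1 lost theirs without preparation 3, Decr2 and Eci1 without spheroid 1, and Acaa1a without preparation 2. The higher calls fell to 1 without preparation 3, where 747 of 12115 genes tested were higher. Cd36 missed the threshold without either spheroid sample (adjusted p = 0.085 and 0.11, edgeR) and without preparation 2 or 3 (adjusted p = 0.061 and 0.073, edgeR). Fgf21 was called in all 5 of these fits.

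Engrafted and cultured spheroids were compared last, in corrected TPM. These fits share the 5 explants with the liver comparison. By limma, 3 of 38 members were called higher in explants (5.0% of all genes) and 1 lower (0.957% of all genes). Acaa1b was at 172 to 444 in explants and 46.9 and 116 TPM in spheroids (log2 fold change 2.10, SE 0.45, adjusted p = 0.033, limma). Bdh1 was at 65.5 to 202 against 20.8 and 39.6 TPM (log2 fold change 2.15, SE 0.47, adjusted p = 0.035, limma) and Cyp4a12b at 14.3 to 102 against 1.27 and 1.01 TPM (log2 fold change 3.60, SE 0.82, adjusted p = 0.041, limma). The spheroid values of Cyp4a12b rested on 4 and 3 counts. Fgf21 was lower, at 20.7 to 95.9 against 306 and 246 TPM (log2 fold change -2.33, SE 0.54, adjusted p = 0.044, limma). For each of these 4 genes the groups did not overlap.

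All 4 calls were lost when either spheroid sample was left out, or explant 2. Without explant 5 the higher calls were lost, and 1 of them was left without explant 4 and without explant 6. Centred on the reference genes, Acaa1b and Bdh1 were called higher (3.03% of all genes) and Fgf21, Ech1 and Pex11a lower (0.825% of all genes). The median log2 fold change was -0.51 over the members, 0.54 over all genes and 0.16 over the reference genes. In explants Fabp1, Acaa1b, Cyp4a12b and Bdh1 lay above both spheroid samples (4 members, where 17.1% of all genes did) and 12 members below both, where 9.47% of all genes did.

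The other genes of the pathway, came from 6 lists that hold 117 genes. Against irises 24 of 112 tested were higher in explants and 0 lower (6.16% and 0.316% of all genes), led by the lipid droplet protein Cidec (log2 fold change 4.58), the bile acid and fatty acid ligase Slc27a5 (4.40) and Bbox1, the last enzyme of carnitine synthesis (4.18). Against livers 23 of 112 were lower and 4 higher (3.01% and 11.8% of all genes). The largest falls were in Mfsd2a, a lysophospholipid transporter (log2 fold change -4.30, adjusted p = 0.040, limma), the peroxisomal thioesterase Acot3 (-2.81, adjusted p = 0.043, limma) and Por, the reductase that feeds electrons to microsomal P450 enzymes (-2.73, adjusted p = 0.0014, limma). Those highest against livers, Cpt1c (4.06), Lpl (2.80) and Slc27a1 (2.61), were also high in irises, at means of 45, 128 and 99.9 TPM. Of the peroxisomal list, 10 of 28 genes were lower and none higher.

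In culture 33 of 109 pathway genes were lower and 8 higher than in preparations (9.11% and 8.13% of all genes), so the share higher was near that of all genes. The falls were largest in the microsomal Cyp4f15 and Cyp4f14 (log2 fold changes -3.84 and -3.82) and the phospholipid transfer protein Pltp (-3.12), and the rises in Fabp4 (2.92), the monocarboxylate carrier Slc16a6 (2.41) and Cyp4f16 (2.14). Fabp4, a binding protein of adipocytes, endothelium and macrophages, was also the 1 of 109 pathway genes called between preparations and livers (2.31% of all genes were lower and 0.409% higher; log2 fold change -2.12, adjusted p = 0.044, edgeR), where it was lower in the preparations. Between explants and cultured spheroids 5 of 112 were higher, near the 5.0% of all genes, led by Cpt1c (3.61), Pltp (3.22) and Slc27a1 (2.79). There 4 were lower (0.957% of all genes), led by the lipid droplet protein Plin5 (-2.12), Por (-2.08) and Lpin1 (-1.94).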

How the data were processed

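Total RNA was sequenced with Smart-seq3. The authors aligned reads to mm10 with TopHat2, removed duplicates with UMI-tools and SAMtools, and counted reads over exons with featureCounts (1.4.6-p5) with no strand option, each gene of an overlap receiving the read. The deposited counts of 3 libraries per sample were summed, and equalled the authors' collapsed table. The deposited TPM values were made by the authors from these counts and exonic lengths. The deposited corrected values, treated here as a score because they are no longer TPM, are TPM minus the iris fraction times the mean iris TPM, divided by 1 minus that fraction. The fraction came from CIBERSORT. In the column of explant 4 the formula was met by 16.45% of genes (100% in the other explants), so the corrected TPM used here were recomputed for all 5 explants by the formula, with values below 0 set to 0. 

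For counts the quasi-likelihood F-test of edgeR 4.0.16 was run after filterByExpr and TMM scaling (SE is the log2 fold change over the square root of F), and TPM were fitted with limma 3.58.1 (trend, genes at a mean of 1 TPM or more, pseudocount 1) in R 4.3.3. The study's methods name limma for the explant and iris comparison. Calls needed an absolute log2 fold change over 1 and an adjusted p under 0.05 (Benjamini-Hochberg, over every gene in the fit). Both fits were tested on simulated data. All 38 members could be named; of the pathway lists, those called with the 3 highest and the 3 lowest log2 fold changes in each comparison. Members and lists were chosen with earlier results of these data known. Comparisons with livers share the 3 livers, and comparisons with hepatocyte preparations share those 3 samples. Alternatives were DESeq2 1.42.0, limma-voom, other scalings and filters, the deposited and uncorrected values, another iris estimate, centring on hepatocyte genes, a block on replicate number and each sample left out. ERCC controls (92 rows, 418 counts in all) were left out.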

Additional observations from a re-analysis of the deposited data

Results flagged for a closer look

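In the 5 explants, 48 sets of corrected values (38 members and the mean scores) were examined for 1 sample standing apart by Dixon's criterion (critical value 0.71), and 9 were picked out. Chance alone gives about 1 in 20 for separate sets. These sets share the same explants and iris shares, and the scores are made from the members, so the 9 cannot be set against that rate. Explant 1, which had the highest iris percentage, was the low sample for Creb3l3 (118.9 corrected TPM, others 188.5 to 202.5), Slc25a20, the carnitine carrier of the inner membrane (14.47, others 71.64 to 87.57), Decr2 (154.0, others 195.9 to 205.7) and Ech1 (173.6, others 264.7 to 301.6). It was also low in the mean log2 ratio to liver over all members (-1.944, others -1.068 to -0.9079) and over the secreted factors (-4.622, others -1.385 to -0.4587), where Angptl4 was at 0 after subtraction. Explant 4, also over 80% iris, was the high sample for Acsl1 (141.0, others 81.32 to 91.2), Acadvl (563.5, others 410.6 to 438) and Cyp4a12b (101.9, others 14.29 to 25.1). The part that the iris subtraction has in these values was not tested.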

How the results depend on the processing

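Members called in the comparisons kept their direction under the alternatives; Cd36, not called against livers, was called lower before correction and higher when centred on reference genes. Against irises the higher calls went from 9 to 14 with no fold limit and ranged from 8 to 12 with 1 sample left out. Over all genes tested they went from 1032 to 1515 and ranged from 554 to 1199. Between hepatocyte preparations and livers, where none was called, 1 member was called higher with no fold limit, with DESeq2, with no filter on low counts and in a single fit of all groups. Over all genes tested 96, 117, 191 and 217 were. With DESeq2 and with no filter 1 member was called lower, beside 530 and 1014 of all genes. Leaving out 1 sample gave 0 to 1 members higher and 0 to 2 lower, beside 4 to 110 and 4 to 338 of all genes. In spheroids against preparations, leaving out 1 sample gave 1 to 2 higher and 8 to 23 lower. In corrected explants against livers the 13 lower and 1 higher became 4 and 0 with the values as deposited, 25 and 0 before correction, 5 and 2 centred on reference genes, and leaving out 1 sample gave 2 to 14 lower and 0 to 1 higher. Over all genes tested 633 lower and 2471 higher became 295 and 1136 as deposited, 1604 and 8292 before correction, and 259 and 5324 centred. Leaving out 1 sample gave 191 to 789 lower and 941 to 3302 higher over all genes. In corrected explants against spheroids the 3 higher and 1 lower became 1 and 0 with no filter and 0 and 0 as deposited. Over all genes tested 1060 and 203 became 836 and 250, and 408 and 80. Leaving out 1 explant gave 0 to 3 members higher and 0 to 2 lower, beside 674 to 1252 and 124 to 203 of all genes. There the lower calls were 12 before correction, 0 with an iris share from non-negative least squares, 3 when centred, 4 with array weights and 3 without explants 1 and 4, which were over 80% iris. Over all genes these were 1201, 218, 175, 726 and 274. Leaving out explants 1 and 4 was a choice made after the data were seen. It left 11 lower and 1 higher against livers, beside 820 and 2707 of all genes. The labels do not say whether same-numbered samples share more than a number. Correlations of their deviations ran from -0.106 to 0.250, and those of other pairs from -0.252 to 0.224, which cannot settle it. With the replicate number as a block both corrected comparisons gave 0 calls higher and 0 lower, among members and among all genes tested. Few replicate numbers occur in both groups of these 2 comparisons, so little was left to measure the spread. The 0 calls therefore cannot show whether the member calls depend on the block. The count comparisons then gave 10 higher against irises, beside 821 of all genes tested. Between preparations and livers they gave 0 higher and 0 lower, beside 62 and 346. In spheroids they gave 3 higher and 13 lower, beside 892 and 1093. The causes of these changes were not tested. Explants of high iris share limit the members also detected in irises, and 2 spheroid samples limit every comparison with spheroids.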
